A study of Mus musculus with 1814 samples.

Results

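Rgcc, Otub2, Gcsam and Anxa2 are 4 genes whose RNA was higher in dark zone than in light zone germinal center B cells of mice at every harvest of 2 time courses. They are 4 of the 25125 genes of the table that holds those time courses, and all 4 were also among the 15177 genes of a second table on genotypes. They were chosen by their CPM, a gene's reads scaled to a common total, in summed dark zone and light zone cells of 8 harvests, 4 times in each of experiments 3 and 4. Among 6178 genes that averaged at least 20 CPM, 3.04% were above in the dark zone in all 8 harvests. Ranked among these by the log2 ratio of the zones' mean CPM, Rgcc came 7th (2.05), Otub2 14th (1.77), Anxa2 28th (1.35) and Gcsam 50th (1.14). Just outside the rule, above in the dark zone in 7 of 8 harvests, the largest such ratios were those of Ifit1bl1 (2.35), Ighg2b (2.23) and Mindy2 (2.03). Just inside it, the ratios of Arpc5l (0.25) and Hmgn1 (0.27) were among the smallest. The zone difference in experiments 3 and 4 is therefore a description of how the genes were picked and carries no test.

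In 1814 wells of 5 experiments, single germinal center B cells from lymph nodes were index-sorted and their RNA was read by SmartSeq2, which covers whole transcripts and carries no molecular identifiers. Experiment 5 held Dec+ cells of 3 genotypes, KO, TA and WT, from the dark and the light zone, with no time given and on plates that carry the name Ccnd3. It gave 62 KO and 82 WT dark zone cells, 100 TA dark zone cells with at least 20000 reads, and 61 KO, 22 TA and 41 WT light zone cells. Experiments 3 and 4 held Dec+ cells of both zones at 12, 30, 46 and 60 h, with no genotype given. Experiment 1 held 42 Dec+ dark zone cells at 30 h, Dec+ light zone cells at 12 h (70 in G1, 73 in S and 23 in G2M) and 80 Dec- light zone cells at 12 h, besides dark zone wells marked PB. One column of the authors' cell table placed those 42 cells at 36 h, and the labels' 30 h was used. The labels do not spell out Dec, TA or PB, what was altered in KO, or which animals the cells came from. Experiments, harvests and genotypes served as replicates where a test was made, never cells, and the spread between them may be partly technical.

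In germinal centers, B cells divide and mutate their antibody genes in the dark zone and compete for T cell help in the light zone. The 4 genes have no shared biochemical role. Rgcc encodes a regulator of the cell cycle that binds the mitotic kinase CDK1. Otub2 encodes a deubiquitinase of the OTU family, which removes ubiquitin from proteins. Gcsam encodes an adaptor of germinal center B cells that binds Syk and acts on B cell receptor signaling and on RhoA-dependent motility. Anxa2 encodes an annexin, which binds membrane phospholipids in a calcium-dependent way and pairs with the small protein S100a10.

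The upstream sequences of the 4 genes are shown to compare promoters of genes that move together between zones. They are the 250 bases before the annotated transcript start in RefSeq (GRCm38.p6), read 5′ to 3′ on the gene's strand, with motif matches in capitals. Rgcc lies on the minus strand of chromosome 14 (79288750 to 79301635), and its window is chr14:79301636-79301885. Otub2 lies on the plus strand of chromosome 12 (103376894 to 103406350) and has 3 annotated windows, of which chr12:103388431-103388680 is shown. Gcsam lies on the plus strand of chromosome 16 (45610440 to 45622867), with the window chr16:45610190-45610439. Anxa2 lies on the plus strand of chromosome 9 (69453683 to 69491792), with the window chr9:69453433-69453682.
Rgcc: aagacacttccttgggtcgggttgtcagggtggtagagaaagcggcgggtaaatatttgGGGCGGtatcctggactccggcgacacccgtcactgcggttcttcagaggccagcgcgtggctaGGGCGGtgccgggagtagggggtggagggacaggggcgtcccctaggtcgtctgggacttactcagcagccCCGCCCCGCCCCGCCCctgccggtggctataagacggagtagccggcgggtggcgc
Otub2: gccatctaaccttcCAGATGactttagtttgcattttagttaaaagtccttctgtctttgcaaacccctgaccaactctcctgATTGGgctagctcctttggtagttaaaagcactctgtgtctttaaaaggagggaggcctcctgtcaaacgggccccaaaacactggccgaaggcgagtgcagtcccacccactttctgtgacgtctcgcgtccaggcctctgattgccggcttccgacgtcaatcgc
Gcsam: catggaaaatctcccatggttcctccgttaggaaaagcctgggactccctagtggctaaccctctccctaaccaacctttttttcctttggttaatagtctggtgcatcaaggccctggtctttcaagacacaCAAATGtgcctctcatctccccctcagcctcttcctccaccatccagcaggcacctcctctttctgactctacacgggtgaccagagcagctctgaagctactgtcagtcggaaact
Anxa2: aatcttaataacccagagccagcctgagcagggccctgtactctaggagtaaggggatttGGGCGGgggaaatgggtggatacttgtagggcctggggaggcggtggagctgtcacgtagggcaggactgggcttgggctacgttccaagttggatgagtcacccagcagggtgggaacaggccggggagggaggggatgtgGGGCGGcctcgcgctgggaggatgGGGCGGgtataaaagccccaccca
Of 6 short motifs searched on both strands, the GC box (GGGCGG) stood 5 times before Rgcc, 3 of them on the opposite strand and overlapping by 1 base, and 3 times before Anxa2, and was absent from the windows of Otub2 and Gcsam. The E-box (CANNTG) occurred once before Gcsam and once in each Otub2 window. A CCAAT box (CCAAT) on the opposite strand, printed as its complement, stood in the Otub2 window shown and in a window shifted by 1 base. The forkhead core (GTAAACA), the CHR element (TTTGAA) and the ETS core (CCGGAA) had no match in any of the windows. Among 32851 windows of all genes, 32.7% held a GC box, 66.2% an E-box, 33.8% a CCAAT box and 3.17% a forkhead core, while 5252 held a CHR element and 3952 an ETS core. The 4 genes thus shared no motif of this set. The GC content was 66.8% before Rgcc and 62.4% before Anxa2, against 51.6% in both the Otub2 window shown and the Gcsam window, where all windows had a median of 52.4% and quartiles of 45.2% and 61.2%.

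Depth was uneven between experiments. Cells had a median of 155485 reads in experiment 5 and of 208013, 292109 and 417105 reads in experiments 3, 4 and 1, and 12 of the 1328 cells used had under 20000. All 9 germinal center B cell markers were above 0 in every sum of cells, at a summed 5607 to 9906 CPM. In experiments 1, 3 and 4 the stromal markers summed to at most 1 CPM and the myeloid markers to at most 33.3 CPM. The genes of experiment 5 included 0 of the 6 stromal markers, so these could not be read there. They included 3 of the 9 myeloid markers, which summed to at most 37.2 CPM. In experiments 1, 3 and 4, 7 markers of naive or memory B cells summed to 142.6 to 360 CPM in dark zone sums, against 421 to 1086 CPM in light zone sums, a range that did not overlap. At least 3 of those 7 were above 0 in every sum of 10 or more cells, and 1 was in the sum of 5 cells. Plasma cell markers summed to 768 to 4510 CPM there and were higher in the dark zone in 7 of the 8 harvests of experiments 3 and 4, with 3 to 6 of 7 above 0. Prdm1, which defines plasma cells, was at 0 in both zones of experiment 1. In experiment 3 Prdm1 was above 0 in the dark zone at 12, 30 and 60 h and in the light zone at 30 h. In experiment 4 it was above 0 in the dark zone at 60 h and in the light zone at 46 h. T cell markers summed to at most 226 CPM in these experiments. The part of these markers in the zone values below was not tested. In sums of cells, fewer cells that express a gene and less RNA per cell cannot be told apart, so the share of cells with a read is given as well.

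Rgcc showed the widest gap between the zones. In experiment 3, dark zone Rgcc was 114.2, 157.2, 162.2 and 122.1 CPM at 12, 30, 46 and 60 h, against 15.1, 29.6, 25.3 and 71.1 CPM in the light zone. In experiment 4 it was 29.6, 54.3, 93.1 and 79.5 CPM in the dark zone, against 4.95, 8.44, 35.3 and 0 CPM in the light zone. Within each experiment every dark zone harvest lay above every light zone harvest in experiment 3, and all but the dark zone at 12 h did so in experiment 4. These values chose the genes, and the share of all genes with such a gap was not counted. The light zone sums rested on few cells: at 12 h in experiment 4, 1 of 26 light zone cells held every Rgcc read. At 60 h in experiment 4 the light zone had 5 cells and none had a read of Rgcc or Otub2. Set against the 3 counts that a sum of 0 allows, dark zone Rgcc was there at least 30.5-fold higher and Otub2 at least 41.4-fold higher.

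In experiment 3, dark zone Otub2 was 33, 107.1, 128.3 and 134.2 CPM at 12, 30, 46 and 60 h, against 10.6, 41.5, 56.3 and 20.7 CPM in the light zone. In experiment 4 it was 81.4, 117.3, 101.7 and 107.9 CPM in the dark zone, against 21.04, 65.2, 16.8 and 0 CPM in the light zone. The 12 h dark zone sum of experiment 3 was the single one to fall within the range of that experiment's light zone. At 46 h in experiment 3, 1 of 11 light zone cells held every Otub2 read.

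Gcsam was read in most dark zone cells and its levels were close between the experiments. Dark zone Gcsam was 624.5, 652.2, 839.5 and 643.5 CPM in experiment 3 at 12, 30, 46 and 60 h, against 289, 172.6, 448 and 452 CPM in the light zone. In experiment 4 it was 642, 578, 837 and 821 CPM in the dark zone, against 170.8, 255, 459 and 311 CPM in the light zone. No dark zone harvest of either experiment fell to the light zone's range, in values that chose the gene. The share of all genes without such overlap was not counted. The highest dark zone value in both experiments came at 46 h.

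Anxa2 in experiment 3 was 1578, 1087, 1519 and 1335 CPM in the dark zone at 12, 30, 46 and 60 h, against 248, 601, 429 and 833 CPM in the light zone. In experiment 4 it was 809, 654, 829 and 1058 CPM in the dark zone, against 384, 174.6, 547 and 254 CPM in the light zone. The zones did not overlap within either experiment, in values that chose the gene, and the share of all genes that did the same was not counted. The dark zone lead of Anxa2 in experiment 3 was 6.36-fold at 12 h and 1.60-fold at 60 h. In experiment 4 it was 2.11-fold at 12 h and 4.17-fold at 60 h, against 5 light zone cells, so the experiments went opposite ways.

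**Figure D1:**
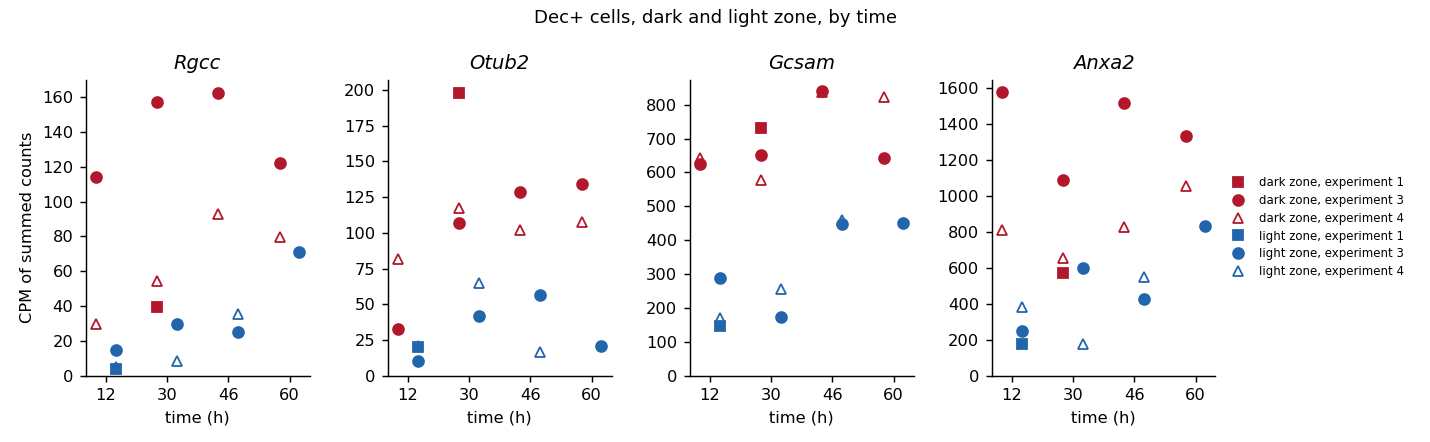
CPM of summed Dec+ cells (vertical axes, linear) against time in hours for the 4 genes, with dark zone sums in red, left of light zone sums in blue, and 1 point for each experiment with at least 10 cells. Dark zone Rgcc runs from 29.6 to 162.2 CPM and light zone Rgcc from 3.87 to 71.1 CPM, while dark zone Gcsam runs from 578 to 839.5 CPM and light zone Gcsam from 147.6 to 459 CPM.

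Experiment 1 did not enter the choice of the genes, but its zones came from different times and plates and were not tested. Its dark zone cells at 30 h had 39.5 CPM of Rgcc, 198.0 CPM of Otub2, 731 CPM of Gcsam and 574 CPM of Anxa2. Its Dec+ light zone cells at 12 h had 3.87 CPM of Rgcc, 20.04 CPM of Otub2, 147.6 CPM of Gcsam and 178.5 CPM of Anxa2. All 4 genes were thus again higher in the dark zone sum, but time and zone cannot be told apart there.

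Some dark zone cells also carried the authors' flag for the light zone, 33 cells in experiment 3 and 64 in experiment 4. These had less of each of the 4 RNAs than the other dark zone cells. In experiment 4 the doubly flagged cells had 13.3 CPM of Rgcc, against 78.8 CPM in the other dark zone cells and 12.8 CPM in light zone cells. Their Anxa2 was 394 CPM, against 969.5 CPM in the other dark zone cells and 347 CPM in light zone cells. Otub2 was 53.6 CPM in them, against 119.4 CPM in the other dark zone cells, and Gcsam 495 CPM, against 777 CPM. In experiment 3 the gap was smaller for Anxa2, at 1229 CPM in doubly flagged cells against 1395 CPM in the others. Rgcc there was 63.7 CPM in doubly flagged cells against 153.4 CPM in the others, Otub2 64.4 against 115.8 CPM, and Gcsam 487 against 736 CPM. These cells were counted as dark zone throughout, as their labels say.

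The genotype experiment gave a zone contrast in cells that the choice did not use. All 4 genes were higher in the dark zone in each of the 3 genotypes. Rgcc was 56.6 CPM in KO, 42.9 CPM in TA and 64.8 CPM in WT dark zone cells, against 23.7, 0 and 3.48 CPM in KO, TA and WT light zone cells. Otub2 was 74.7 CPM in KO, 72.7 CPM in TA and 96.4 CPM in WT dark zone cells, against 39.6, 48.1 and 10.8 CPM in KO, TA and WT light zone cells. Neither gene overlapped between zones.

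Gcsam was 973 CPM in KO, 920 CPM in TA and 1132 CPM in WT dark zone cells, against 406, 202 and 296 CPM in KO, TA and WT light zone cells. Anxa2 was 413 CPM in KO, 857 CPM in TA and 631 CPM in WT dark zone cells, against 262, 207 and 273 CPM in KO, TA and WT light zone cells. The lowest dark zone sum of each gene exceeded its highest light zone sum. The share of all genes that did so, or that were higher in each genotype, was not counted. With genotype as block, the log2 difference of dark against light zone was 4.13 (SE 1.63) for Rgcc, 1.54 (SE 0.65) for Otub2, 1.83 (SE 0.22) for Gcsam and 1.33 (SE 0.30) for Anxa2, n = 3 genotypes. None passed edgeR's quasi-likelihood test with Benjamini-Hochberg adjustment over 11252 genes (adjusted p = 0.986 for each). That test called 0 genes of all tested, or 0%, where 455 had an unadjusted p below 0.05, and had 2 residual degrees of freedom. Its median log2 difference over all genes was 0.16. DESeq2 on the same sums called 100 genes higher and 45 lower, Gcsam (adjusted p = 6.4e-12), Anxa2 (adjusted p = 0.0039) and Rgcc (adjusted p = 0.032) among them, but not Otub2 (adjusted p = 0.33). When the phases of each genotype were fitted apart, edgeR called 4 genes, Gcsam among them (adjusted p = 0.011). The 7 naive or memory B cell markers summed to 124.9 to 249 CPM in the dark zone sums, against 554 to 970 CPM in the light zone sums, and plasma cell markers to 5891, 2294 and 2959 CPM in KO, TA and WT dark zone sums, against 3688, 1456 and 1753 CPM in KO, TA and WT light zone sums. Their part in this contrast was not tested.

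The shares of cells with a read showed the same order of zones. Each cell was thinned to 20000 reads, so that depth was equal. In experiment 5, whose cells did not enter the choice, the dark zone share was above the light zone share in 12 of 12 pairs of a gene and a genotype, thinned or not. It was also above in the 8 pairs of experiments 3 and 4, whose cells chose the genes, and in the 4 of experiment 1, where zone and time cannot be told apart. Such pairs were not counted for other genes. Thinned Rgcc was read in 44.1% of 247 dark zone cells, against 10.1% of 99 light zone cells in experiment 3, and in 29.1% of 251 dark zone cells, against 5.71% of 70 light zone cells in experiment 4. Before thinning these shares were 48.6% against 10.0% and 33.1% against 10.0%. Thinned Anxa2 was read in 88.7% of dark zone cells, against 59.6% of light zone cells in experiment 3, and in 81.7% against 52.9% in experiment 4. Most light zone cells of both experiments thus had a read of Anxa2, and few had one of Rgcc.

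Thinned Gcsam was read in 76.9% of dark zone cells against 55.6% of light zone cells in experiment 3, and in 72.5% against 47.1% in experiment 4. Thinned Otub2 was read in 30.8% of dark zone cells against 8.08% of light zone cells in experiment 3, and in 33.9% against 17.1% in experiment 4. In WT cells of experiment 5 the thinned shares in the dark zone were 26.3% for Rgcc, 28.8% for Otub2, 77.5% for Gcsam and 73.8% for Anxa2 (80 cells). The WT light zone shares were 2.78% for Rgcc, 5.56% for Otub2, 41.7% for Gcsam and 18 of 36 cells for Anxa2. The smallest gap was that of Otub2 in KO cells, with 22.6% of 62 dark zone cells (95% exact interval 12.9 to 34.97%) against 18.03% of 61 light zone cells (9.36 to 29.98%), which overlap widely. These intervals take cells as independent and cover counting error only.

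**Figure D2:**
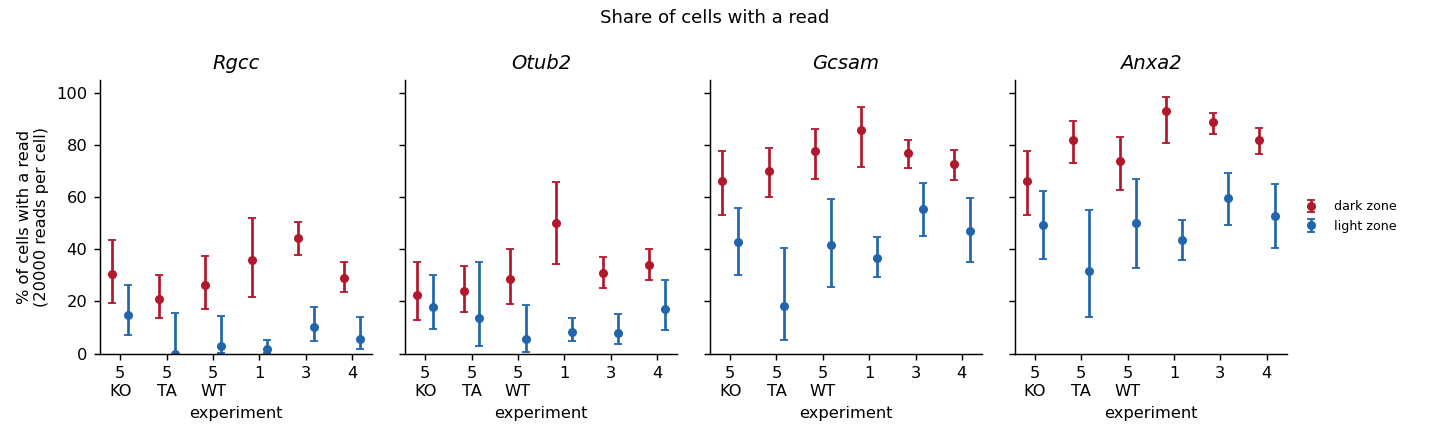
Percent of cells with at least 1 read of each gene after thinning every cell to 20000 reads, for dark zone (red) and light zone (blue) cells of experiment 5 by genotype and Dec+ cells of experiments 1, 3 and 4. Points are shares and bars are exact 95% binomial intervals. Dark zone Anxa2 runs from 66.1% to 92.9% and light zone Anxa2 from 31.8% to 59.6%, and dark zone Rgcc is highest in experiment 3, at 44.1%.

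The genes were also read together in single dark zone cells. At 20000 reads per cell, at least 1 read of all 4 was found in 16.2% of dark zone cells, against 1.01% of light zone cells in experiment 3, and in 15.9% against 1.43% in experiment 4. In experiment 5 this share was 10.0% of 80 WT dark zone cells against 0 of 36 WT light zone cells, and 4.00% of 100 TA dark zone cells against 0 of 22 TA light zone cells. In KO cells it was 3.23% of 62 dark zone cells against 4.92% of 61 light zone cells. KO was the single set of Dec+ cells in which the light zone share was not the lower one, on 2 dark zone and 3 light zone cells. All 4 genes were at 0 in 3.64% of dark zone cells against 16.2% of light zone cells in experiment 3, and in 9.56% against 24.3% in experiment 4.

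Across 24 sums of cells, each less the mean of its experiment, the log2 CPM of the genes went together, most closely for Gcsam and Rgcc (Pearson r = 0.90) and least for Anxa2 and Otub2 (r = 0.56). The sums share zones, so these values hold the zone difference that chose the genes. After the zone mean was also taken away, r was 0.64 for Gcsam and Rgcc, 0.30 for Anxa2 and Gcsam and 0.21 for Anxa2 and Rgcc. Otub2 then had r of -0.04 with Rgcc, -0.03 with Gcsam and -0.13 with Anxa2. With the zone mean removed, Otub2 was thus near 0 or below in r with the other 3 genes. Likeness to other genes was taken with the experiment mean removed but not the zone mean, so it also holds the zone difference. Among 6237 other genes over these 24 sums, the pattern most like Rgcc was that of Cenpa (r = 0.89), a centromere histone. Pkig, Mettl9, Msh3 and Ube2h followed. Among the genes most like Otub2 were Cenpf (r = 0.79), Neil1, Ift22 and Smarca4. For Gcsam it was Cmpk1 (r = 0.88), then Neil1, Pkig, Cenpa and the B cell coactivator Pou2af1. For Anxa2 it was Trp53i11 (r = 0.93), and Hmces, Cd79b and H2afv were also among the closest.

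Time was compared within each zone, with 12 h as the base and the experiment as block. The dark zone log2 differences of Rgcc were 0.68 (SE 0.59) at 30 h, 1.14 (SE 0.62) at 46 h and 0.72 (SE 0.61) at 60 h. Those of Otub2 were 1.13 (SE 0.58), 1.12 (SE 0.60) and 1.10 (SE 0.60) at 30, 46 and 60 h. In both experiments, dark zone Rgcc and Otub2 were lowest at 12 h, as were the shares of dark zone cells with a read of Rgcc. Those shares of Rgcc were 25.6%, 45.2%, 63.01% and 50.7% at 12, 30, 46 and 60 h in experiment 3 and 11 of 55 cells, 35.8%, 35.2% and 38.5% in experiment 4.

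Dark zone Gcsam differed from 12 h by a log2 value of 0.17 (SE 0.32) at 30 h, 0.50 (SE 0.33) at 46 h and 0.20 (SE 0.33) at 60 h. Dark zone Anxa2 differed by -0.32 (SE 0.43) at 30 h, 0.07 (SE 0.45) at 46 h and 0.05 (SE 0.45) at 60 h, so that its level at the later times was set apart from that at 12 h by less than the error. None of the 4 genes passed at any dark zone time in edgeR's quasi-likelihood test with Benjamini-Hochberg adjustment over 11661 genes (adjusted p = 1.00 for each). The test called 0% of all genes at 30, 46 and 60 h in the dark zone, where 255, 502 and 194 genes had an unadjusted p below 0.05. DESeq2 called 84, 91 and 77 genes higher and 7, 44 and 21 lower at those times, none of the 4 among them.

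In the light zone at 46 h, Gcsam was 448 CPM in experiment 3 and 459 CPM in experiment 4, against 289, 170.8 and 147.6 CPM at 12 h in experiments 3, 4 and 1. Both 46 h sums thus lay above all of the 12 h sums. The log2 difference was 1.21 (SE 0.31) for Gcsam, 2.09 (SE 0.60) for Rgcc, 1.38 (SE 0.57) for Otub2 and 0.77 (SE 0.43) for Anxa2. None passed edgeR's test (adjusted p = 0.094 for Gcsam, 0.14 for Rgcc, 0.35 for Otub2 and 0.53 for Anxa2), which called 55 genes or 0.472%. In that contrast the median gene stood at -0.30 on the log2 scale in edgeR and at -0.05 in DESeq2. DESeq2 called 1078 genes, with Gcsam (adjusted p = 0.0032) and Rgcc (adjusted p = 0.0082) among them. The 46 h light zone sums held 11 and 17 cells in experiments 3 and 4. Rgcc was read in 2 of 11 and 2 of 17 of them, with 66.7% and 87.3% of its reads in 1 cell. Otub2 was read in 1 of 11 and 3 of 17, so the rises of both rest on very few cells. At 30 h the light zone log2 differences were 1.90 (SE 0.56) for Otub2, 0.96 (SE 0.59) for Rgcc, 0.25 (SE 0.44) for Anxa2 and 0.09 (SE 0.31) for Gcsam. None passed (adjusted p = 1.00 for each), where edgeR called 0% of genes and 402 had an unadjusted p below 0.05, and DESeq2 called 27 higher and 91 lower. At 60 h the light zone had 1 sum of 10 or more cells and was not tested.

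In CPM, the authors' cell cycle phase separated Gcsam from Anxa2 within the dark zone. Dark zone Gcsam was 459, 746 and 908 CPM in G1, S and G2M cells of experiment 3, 427.5, 782 and 829.3 CPM in experiment 4, and 934, 1274 and 1283 CPM in WT cells of experiment 5. The G1 sum was the lowest in each. Gcsam was higher in G2M than in G1 by 0.92 on the log2 scale (SE 0.15, adjusted p = 0.0153, edgeR) and in 3 of 3 experiments, and it was the single one of the 4 genes to pass. The same test called 2.34% of genes in G2M and 2.14% in S. In S, Gcsam stood 0.67 above G1 (SE 0.15) and missed the threshold (adjusted p = 0.061, edgeR). Without the experiment as block the G2M call was lost (adjusted p = 0.58, edgeR), as it was without experiment 3 (0.36) or without experiment 4 (0.23).

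Dark zone Otub2 was 68.4, 121.5 and 137.4 CPM in G1, S and G2M cells of experiment 3, 31.4, 79.4 and 180.4 CPM in experiment 4, and 88.6, 76.2 and 125.1 CPM in WT cells of experiment 5. The G2M sum was the highest in each. The log2 difference from G1 was 0.76 (SE 0.42) in S and 1.26 (SE 0.41) in G2M, and neither passed edgeR's test (adjusted p = 0.51 and 0.21). The share of dark zone cells with an Otub2 read, at 20000 reads per cell, was 6.58%, 37.1% and 54.7% in G1, S and G2M of experiment 4, and 16.9%, 39.5% and 37.7% in experiment 3. Unthinned, these shares were 6.58%, 36 of 90 cells and 61.4% in experiment 4 and 19.1%, 44.4% and 49.4% in experiment 3. In both experiments, then, Otub2 was read in fewer G1 cells than in S or G2M cells. Experiment 1 had 4 dark zone cells in G1, none with an Otub2 read, and entered with S and G2M alone, where Otub2 was 257.6 CPM in S and 178.7 CPM in G2M cells, the other order.

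Dark zone Rgcc was 133.6, 141.6 and 149.8 CPM in G1, S and G2M cells of experiment 3, 33.5, 50.95 and 95.6 CPM in experiment 4, and 42.4, 63.4 and 97.4 CPM in WT cells of experiment 5. Its order was G1, S, G2M in all 3, and the step was small in experiment 3. Experiment 1 had 47.3 CPM of dark zone Rgcc in S and 36.4 CPM in G2M cells. The log2 difference from G1 was 0.53 (SE 0.35) in S and 0.95 (SE 0.35) in G2M (adjusted p = 0.62 and 0.28, edgeR). Dark zone Anxa2 was 1697, 1275 and 1144 CPM in G1, S and G2M cells of experiment 3, 916, 808 and 774 CPM in experiment 4, and 653, 704 and 535 CPM in WT cells of experiment 5. Its G2M sum was the lowest in each, with log2 differences from G1 of -0.12 (SE 0.14) in S and -0.30 (SE 0.14) in G2M (adjusted p = 0.83 and 0.45, edgeR). Neither Rgcc nor Anxa2 passed in either phase.

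In the light zone, none of the 4 genes passed in S or G2M, where edgeR called 0.965% and 0.862% of genes. The log2 differences of S and G2M from G1 were 0.58 (SE 0.43) and 0.90 (SE 0.47) for Gcsam, and -0.81 (SE 0.42) and -0.68 (SE 0.45) for Anxa2. These signs were not shared by all experiments. Light zone Gcsam in S against G1 had log2 ratios of 2.54, 0.83, -0.69 and -0.08 in experiments 1, 3, 4 and 5 (WT), and in G2M of 2.51, 0.91 and -0.01 in experiments 1, 3 and 4. Light zone Anxa2 in S against G1 had log2 ratios of -0.82, -0.71, -2.26 and 0.65 in experiments 1, 3, 4 and 5 (WT). The fitted differences of S and G2M were 0.75 (SE 1.11) and 0.90 (SE 1.13) for Otub2, and -3.08 (SE 1.51) and -2.11 (SE 1.70) for Rgcc. Adjusted p values in edgeR ran from 0.51 to 0.92. Light zone Rgcc in S was read in 8 of 150 cells of this fit (Dec+ cells of experiments 1, 3 and 4 and WT cells of experiment 5), so its fold rests on very few cells.

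**Figure D3:**
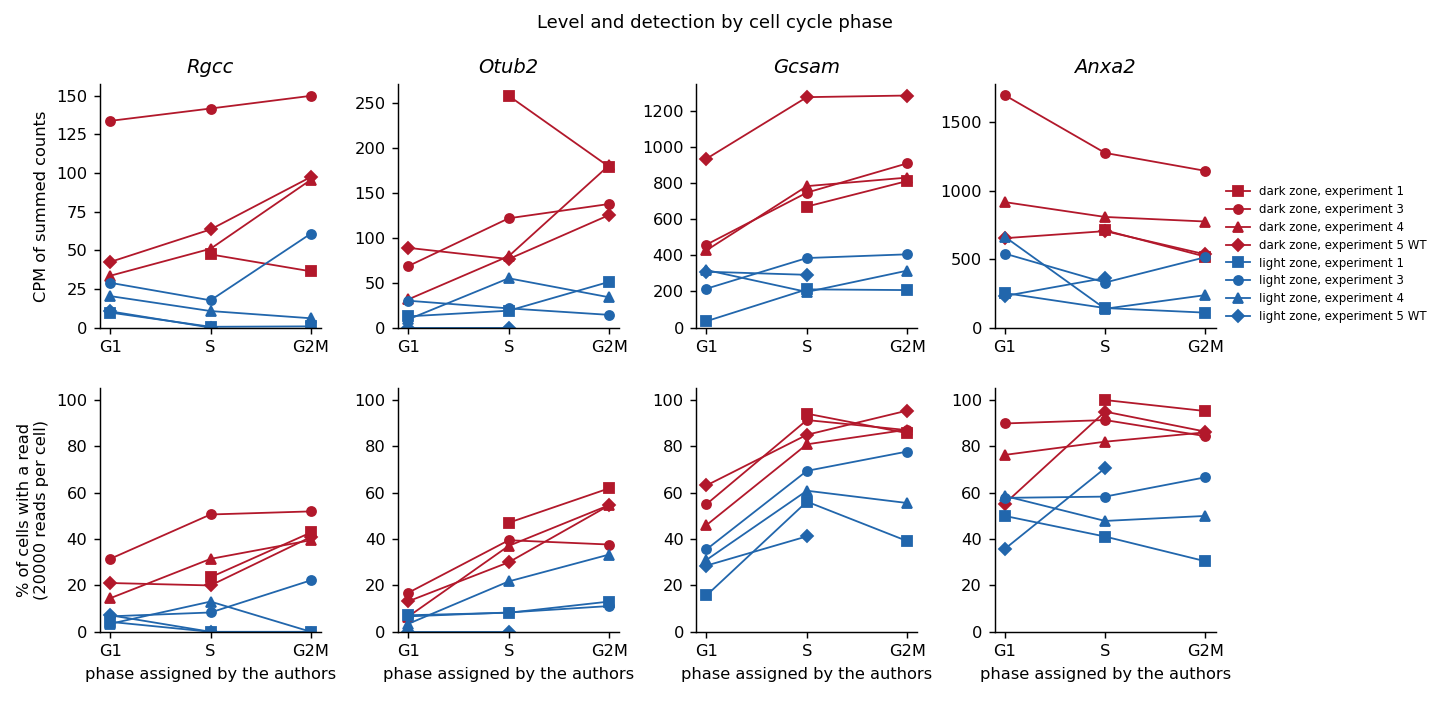
Upper row, CPM of summed cells, and lower row, percent of cells with a read at 20000 reads per cell, against the authors' phase in the order G1, S, G2M, for dark zone (red) and light zone (blue) Dec+ cells, with 1 line for each experiment and sums of at least 10 cells. Dark zone Gcsam is lowest in G1 in every line that has a G1 point (459, 428 and 934 CPM), and dark zone Anxa2 of experiment 3 is highest in G1 (1697 CPM).

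The zones also differed among cells of 1 phase. Among 12 pairs of zones within 1 phase, with at least 10 cells on each side, dark zone Rgcc, Gcsam and Anxa2 were higher in 12 of 12 and dark zone Otub2 in 11 of 12. The median log2 ratios of dark over light zone were 2.55 for Rgcc, 2.09 for Otub2, 1.34 for Gcsam and 1.57 for Anxa2. Of these pairs, 6 come from experiments 3 and 4, which chose the genes. Those of experiment 1 set dark zone cells at 30 h against light zone cells at 12 h, so time and zone cannot be told apart there. The medians hold all of these pairs, and the share of all genes that did the same was not counted. The exception was Otub2 in TA cells in G1, with no read in 23 dark zone cells, against 23.9 CPM from 1 of 12 light zone cells.

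In light zone cells at 12 h in experiment 1, Dec+ and Dec- cells were compared on 3 plates without a test, since there was 1 experiment. Anxa2 was 178.5 CPM in Dec+ cells (exact 95% Poisson interval 176.3 to 180.8) and 624.7 CPM in Dec- cells (618 to 632), a log2 ratio of -1.80. On the 3 plates it lay between 158.3 and 217 CPM in Dec+ cells, against 627, 719 and 431 CPM in Dec- cells. The plate sums of the groups did not overlap, and the share of all genes that did the same was not counted. Anxa2 was the single one of the 4 genes past 2-fold at 20 CPM or more, a step that 31.1% of 6440 genes took. It was lower in Dec+ cells in each phase, by a log2 ratio of -0.87 in G1, -2.85 in S and -1.30 in G2M. One Dec- cell held 26.3% of the Dec- reads of Anxa2, and with each cell weighing the same the ratio was -1.09. On the first plate 1 cell held most of the Dec- reads, so its 627 CPM rests mostly on that cell. With cells weighing the same, Dec- Anxa2 was 275.8, 509.5 and 448.5 CPM on the plates, against 201.7, 185.9 and 194.8 CPM for Dec+. In cells with a read, the first plate's median was lower in Dec- (260.6 CPM) than in Dec+ cells (305.7 CPM), unlike the other plates. The share of cells with an Anxa2 read, at 20000 reads per cell, was 43.4% of Dec+ cells (35.7 to 51.3%) and 62.5% of 80 Dec- cells (50.96 to 73.1%). The 7 naive or memory B cell markers summed to 604 CPM in Dec+ and 823 CPM in Dec- cells, with 7 and 6 of them above 0, and the 9 germinal center B cell markers to 5607 CPM in Dec+ and 9019 CPM in Dec- cells. Their part in the Anxa2 values was not tested.

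Gcsam was 147.6 CPM in Dec+ and 181.8 CPM in Dec- cells, and Otub2 was 20.04 CPM in Dec+ and 27.7 CPM in Dec- cells. On plates, Dec+ Gcsam lay between 126.9 and 160.2 CPM and Dec- Gcsam between 119.6 and 241.6 CPM, and the groups overlapped. The order of the groups differed by phase. In G1 it was 35.5 CPM in 70 Dec+ cells against 166.9 CPM in 47 Dec- cells, and in S it was 211 CPM in 73 Dec+ cells against 100.8 CPM in 25 Dec- cells. Rgcc had reads in 5 Dec+ cells and 1 of 80 Dec- cells, under 20 CPM in both.

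**Figure D4:**
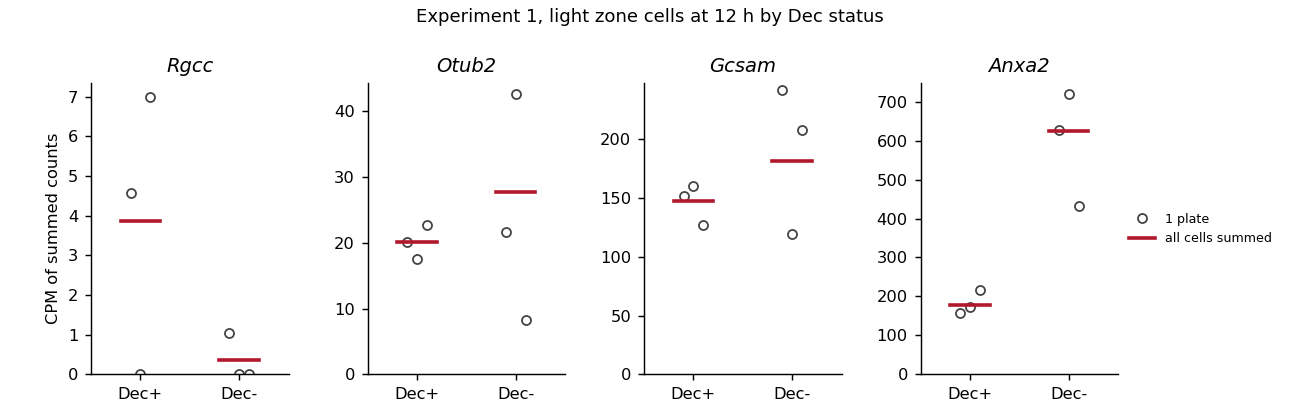
CPM of the 4 genes in light zone cells of experiment 1 at 12 h, Dec+ left of Dec-, with 1 open point for each of 3 plates and a red line for all cells summed. Anxa2 lies between 158.3 and 217 CPM on the Dec+ plates and between 431 and 719 CPM on the Dec- plates, and the other 3 genes overlap or are near 0.

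Genotypes were compared within each zone of experiment 5, again with 1 experiment and no test. The median share of mitochondrial reads per dark zone cell was 10.8% in KO and 5.94% in TA, against 6.93% in WT, and its part in the values was not tested. Phase was uneven too. Dark zone cells in G1, S and G2M numbered 48, 2 and 12 in KO and 23, 46 and 32 in TA. WT had 38, 20 and 24 of them. In the light zone these numbers were 45, 9 and 7 in KO and 12, 8 and 2 in TA. For WT they were 15, 18 and 8. The part of phase in the genotype ratios was not tested. In the dark zone none of the 4 genes reached a 2-fold difference in KO or TA. The log2 ratio of KO over WT was -0.61 for Anxa2, -0.36 for Otub2, -0.22 for Gcsam and -0.19 for Rgcc, where 27.5% of 7054 genes differed 2-fold. The Rgcc ratio rested on single plates, at -0.90 without the first plate and 0.22 without the second, and the Otub2 ratio was 0.15 without the fourth. Anxa2 on the 4 plates was 321, 418, 394 and 498 CPM in KO dark zone cells, against 578, 674, 487 and 776 CPM in WT dark zone cells, lower in KO on 4 of 4 plates, though the ranges overlapped. In the same KO dark zone cells, 10 T cell markers summed to 486 CPM, against 108.7 CPM in WT, and 6 plasma cell markers to 5891 CPM, against 2959 CPM in WT. All of both lists were above 0 in KO, where WT dark zone cells lacked Trbc2 and Prdm1. Their part in these values was not tested. The log2 ratio of TA over WT was -0.58 for Rgcc, -0.40 for Otub2, -0.30 for Gcsam and 0.44 for Anxa2, where 18.4% of 6856 genes differed 2-fold.

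TA dark zone cells in G1 had no Otub2 read in 23 cells, against 88.6 CPM from 5 of 38 WT cells in G1. Rgcc in these cells was 10.0 CPM in TA, from 2 cells, against 42.4 CPM in WT, from 11 cells. In G2M, KO dark zone Rgcc was 24.9 CPM, from 3 of 12 cells, against 97.4 CPM in WT, from 12 of 24 cells, and TA dark zone Rgcc was 39.7 CPM, from 9 of 32 cells. These were the dark zone differences past 2-fold within a phase, and each rests on few cells.

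In the light zone, Rgcc was 23.7 CPM in KO cells (exact 95% interval 20.6 to 27.1) and 3.48 CPM in WT cells (2.06 to 5.50), a log2 ratio of 2.46. It was read in 10 of 61 KO cells and 1 of 41 WT cells, and on 4 of 4 plates in KO against 1 of 4 in WT. In these light zone cells the median mitochondrial share was 10.35% in KO, against 6.52% in WT. Plasma cell markers summed to 3688 CPM in KO, against 1753 CPM in WT, with 5 and 4 of 6 above 0, and naive or memory B cell markers to 970 CPM in KO, against 554 CPM in WT, with 7 and 3 of 7 above 0. Their part in the light zone values was not tested. Otub2 was 39.6 CPM in KO and 48.1 CPM in TA light zone cells, against 10.8 CPM in WT light zone cells, with log2 ratios of 1.78 for KO and 2.05 for TA. It was read in 13 of 61 KO, 3 of 22 TA and 2 of 41 WT light zone cells. The KO value lay above WT on each plate, but the TA ratio was 0.86 without the third plate. In KO, Rgcc and Otub2 were 2 of the 4 genes past 2-fold, where 34.8% of 7325 genes differed 2-fold from WT. In TA, Otub2 was 1 of the 4 past it at 20 CPM or more, where 42.6% of 7119 genes did. Rgcc was not read in any of 22 TA light zone cells, and 3 counts would have made 0.82 CPM there. Against that floor, which covers the counting of reads only, the TA dark zone sum of Rgcc was 52.3-fold higher. Gcsam and Anxa2 in the light zone differed from WT by less than 2-fold in both genotypes, with log2 ratios of 0.45 and -0.06 in KO and -0.55 and -0.40 in TA.

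**Figure D5:**
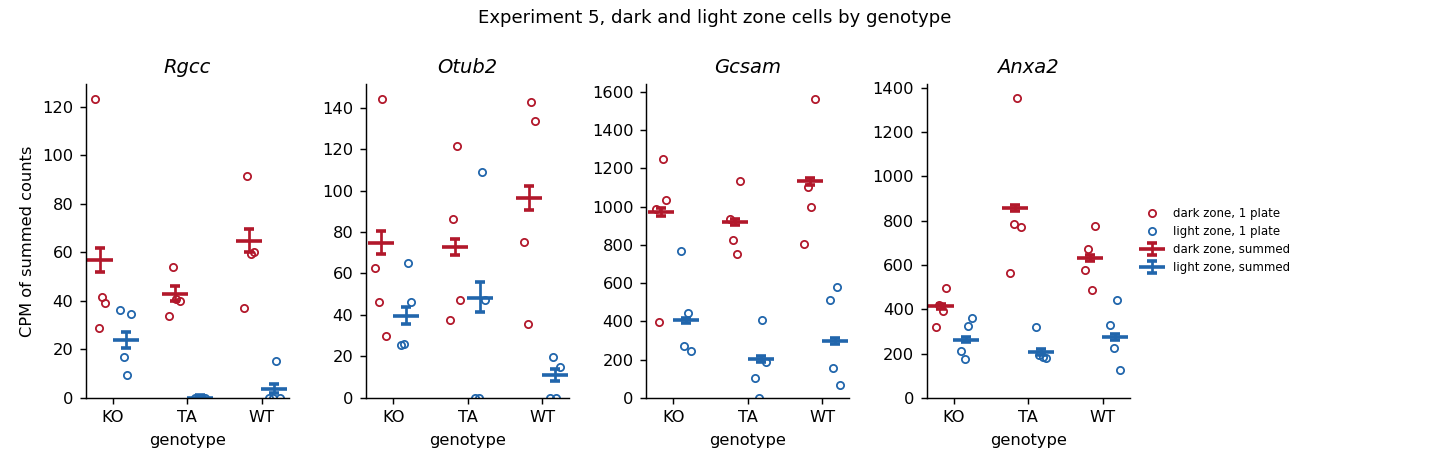
CPM in experiment 5 by genotype (KO, TA, WT) for dark zone (red) and light zone (blue) cells. Thick lines mark the sum of all cells with its exact 95% Poisson interval for counting error, and open points are single plates. Light zone Rgcc is 23.7 CPM in KO, 0 in TA and 3.48 CPM in WT, and single plates spread far beyond the counting intervals.

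Wells marked PB were set against the other dark zone wells of the same experiment and time, without a filter on cells and without a test. Anxa2 was 1347 CPM in 40 PB wells and 554 CPM in 48 other dark zone wells, a log2 ratio of 1.28, where 42.2% of 6352 genes differed 2-fold. One PB well held 47.3% of the PB reads of Anxa2, and the share of wells with a read was 92.5% in PB and 95.8% in the others. Gcsam was 443 CPM in PB wells and 699 CPM in the others, and Rgcc 44.9 CPM in PB wells and 38.1 CPM in the others. Otub2 had a log2 ratio of -0.18, with 1 PB well holding 49.1% of its PB reads. Gcsam and Otub2 were the lower and Rgcc the higher in PB wells, each by less than 2-fold. One PB well held 66.6% of the PB reads of Rgcc, and Rgcc was read in 12 of 40 PB wells and 24 of 48 other wells, the opposite direction to its CPM.

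Genes of the same families and pathways were set beside the share of all genes called, which was low. Lists this short would then seldom hold a call, so 0 passing says little about a family. Between the zones in experiments 3 and 4, where edgeR called 30 of 9302 genes or 0.323%, 0 of 7 tested annexins and S100 partners and 0 of 11 OTU deubiquitinases passed, and Otub1, the closest relative of Otub2, had a log2 difference of -0.17 (SE 0.16). The lists' medians were 0.79 for annexins and 0.39 for OTU deubiquitinases, beside 0.20 for all genes. None of 17 genes of B cell receptor and RhoA signaling passed (median 0.28). Of 15 tested CDK1 partners, 2 were higher in the dark zone, Cdc20 (1.19) and Ccnb2 (1.11), both of which drive mitosis. Of 12 dark zone markers, 4 were higher, with Mtf2 (1.82), Hmces (1.77) and Neil1 (1.16) the largest. Cxcr4, the chemokine receptor that defines the dark zone gate, had a log2 difference of 3.22 (SE 0.96) and did not pass (adjusted p = 0.26, edgeR). Of 15 light zone markers, 7 were lower in the dark zone, led by Il4i1 (-2.45), Cd83 (-1.80) and Cd40 (-1.75), where Cd83 and Cd40 act in T cell help. Neither in the genotype experiment nor at any time did a listed gene pass in edgeR. Of all genes, edgeR called 0 in these contrasts, except 0.472% in the light zone at 46 h. Outside that contrast no listed gene could pass.

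The authors' phase goes with deposited scores made from RNA of cell cycle genes. The standard lists of Seurat for such scores hold Cdk1 and Ung, so differences of such genes between phases restate the phase call. In the dark zone, 11 of 16 CDK1 partners were higher in G2M, where 2.34% of all genes were called, led by Plk1 (8.20), Cdk1 (7.27) and Ccna2 (6.32) on the log2 scale, and 6 of 16 were higher in S, where 2.14% of all genes were called. Among dark zone markers, the repair genes Polh (2.59) and Hmces (1.37) were higher in G2M, and Ung (2.80) and Polh (1.34) in S. Among genes of B cell receptor and RhoA signaling, the pathway of Gcsam, Btk (-0.84), Cd79b (-0.78) and Cd79a (-0.62) were lower in S, and Cd79b (-0.85) in G2M. Of light zone markers, Cd83 was lower in G2M (-1.43). No annexin (0 of 8) and no OTU deubiquitinase (0 of 12) passed in S or in G2M, with Otub1 at -0.41 (SE 0.28) in S and -0.12 (SE 0.30) in G2M. In the light zone, 3 of 15 CDK1 partners passed in S and 6 of 15 in G2M, all higher, beside 0.965% and 0.862% of all genes, while Cd79b (-1.04), Cd86 (-1.69) and Cd83 (-0.85) were lower in S. S100a10, the partner of Anxa2, was at most 11.9 CPM in any sum and was too low to test between phases or zones.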

How the data were processed

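RNA of single mouse cells was measured by SmartSeq2. The authors deposited expected counts (estimated reads per gene and well, not normalized), and mm10, Seurat 3.1.4, STAR 2.6 and RSEM 1.3.1 are named, with no order, in the submitters' processing notes. The authors' deposited cell tables also gave the percent of mitochondrial reads, a score for S and for G2M, the phase as text, a flag for each zone, and the sort intensity of FUCCI, CXCR4, CD83 and CD86, which entered no result here. The median percent of mitochondrial reads ran from 1.37 to 12.4 over groups.

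Counts of 959 cells of experiments 1, 3 and 4 and 369 cells of experiment 5 were used. In all, 255 well columns of the combined tables (experiment 2) matched no single well and 110 wells had no group in the labels. These were not analysed here. Cells were summed per experiment, time or genotype, zone and phase (at least 10 cells), rounded, freed of low genes by filterByExpr, given TMM factors and tested by edgeR 4.0.16 (limma 3.58.1, R 4.3.3) with a block. Two-sided p values took the Benjamini-Hochberg adjustment across every gene tested, with a threshold of 0.05. The script was tested on simulated data. DESeq2 1.42.0 was an alternative. Comparisons with 1 experiment had no test: log2 ratios used a pseudocount of 1 CPM, and called means 2-fold or more at 20 CPM or more in either group. Poisson and binomial intervals are exact, at 95%, and like the floor of 3 counts for a 0 they cover counting error only, as reads without molecular identifiers are not independent molecules. CPM here is relative to all reads of a sum and is not corrected for gene length, so levels of different genes are not compared.

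The 4 genes and all lists were chosen with earlier results of these data known. From each list, the text names at most the 3 genes that passed with the largest change per direction, and always Cxcr4, S100a10 and Otub1 where it gives values for them. For likeness it names genes from the 5 others of highest Pearson r. Some genes that these rules would name are not reported here. Sequences are from RefSeq, where all 4 symbols matched.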

Additional observations from a re-analysis of the deposited data

Results flagged for a closer look

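Rgcc in S cells against G1 cells had a median log2 ratio of 0.57 in the dark zone (3 experiments, all above 0) and of -1.84 in the light zone (4 experiments, all below 0). It is listed because every experiment went one way in the dark zone and the other way in the light zone. The difference between the zones was not tested. The light zone ratios rest on few cells, with reads in 1, 3 and 4 S cells of experiments 1, 3 and 4 and in none of 18 WT S cells of experiment 5. The share of light zone cells with a read went against the CPM in experiment 3 (3 of 36 in S, 3 of 46 in G1) and experiment 4 (4 of 23 in S, 1 of 29 in G1). Of 20 groups of 4 to 10 sums examined for a value far from the rest, none held one.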

How the results depend on the processing

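In the genotype experiment, 0 of the 4 genes passed between zones, and DESeq2 called 3 and the phases fitted apart 1. In the light zone time course, 0 passed, while DESeq2 called 2 and each cell weighing the same 1. Over all genes at 46 h, the main fit called 55 and DESeq2 1078. Each cell weighing the same called 24 higher and 269 lower there. For the dark zone phases, 1 passed (Gcsam). DESeq2, each cell weighing the same, sums of at least 20 cells, all genotypes of experiment 5 and harvests apart each gave 2, no replicate block gave 0, and leaving out 1 experiment gave 0 to 2. The settings that gave 2 also called more of all genes than the main fit. DESeq2 called 560 higher and 200 lower in S, and 596 and 190 in G2M. The main fit called 193 higher and 25 lower in S, and 212 and 27 in G2M. Between Dec+ and Dec- cells, 1 gene was past 2-fold, with 2 in G1 cells alone and 2 in S cells alone. Of all genes, 1141 were higher and 859 lower by 2-fold among 6440. In G1 cells these were 1830 and 1239 of 6242, and in S cells 1718 and 1178 of 6410.

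Signs of tested values turned, none of which had passed, for those of dark zone Anxa2 at 46 h (-0.044 with each cell weighing the same, and -0.038 without experiment 4 to 0.23 without experiment 3) and at 60 h (-0.010 with no replicate block, and -0.24 without experiment 4 to 0.39 without experiment 3). The same holds for light zone values at 30 h of Anxa2 (-0.86 without experiment 3 to 1.325 without experiment 4) and Gcsam (-0.32 without experiment 4 to 0.78 without experiment 3). It also holds for Rgcc in light zone G2M (0.43 with no replicate block) and Otub2 in light zone S (-0.15 without experiment 4 to 1.66 without experiment 3). Otub2 in KO against WT light zone cells was -2.26 in G2M cells alone (7 KO and 8 WT cells). Untested ratios under 2-fold also turned, among them Gcsam in Dec+ against Dec- cells (1.06 in S cells), Otub2 there (0.33 without the second plate) and Rgcc in KO against WT dark zone cells (0.22 without the second plate, 0.65 in G1 cells). The cause of these changes was not tested. Of the other values of the 4 genes with a test, 443 kept sign and side of the threshold, 13 came to pass and 3 no longer passed. Of those without a test, 14 crossed the 2-fold line.

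Over all genes, counts of calls ranged from 45 to 760 in dark zone S, 61 to 786 in dark zone G2M, 3 to 675 in light zone S, 1 to 560 in light zone G2M and 0 to 1078 in the light zone at 46 h. At other times and between the zones of experiment 5, they ranged upward from 0, with DESeq2 highest. Sums of the same block deviated together at r from 0.08 to 0.62, with 0.12 the median in experiment 5, and sums of other blocks had negative medians. With sums of at least 20 cells, the light zone at 46 h could not be fitted. A filter of 20000 counts on PB wells was chosen after seeing the data and left Anxa2 at 1.28. Few light zone cells with a read of Rgcc or Otub2 limit the precision of both.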
